A study of Mus musculus with 27 samples.

Results

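Inverted joins at and below the Sμ bait were the 10526 junctions, of 193201 in all, whose joined DNA lay on chromosome 12 between 114654780 and 114664913 (mm9) and was read on the plus strand. Sμ is the switch region in front of the constant gene for IgM, and the bait is a fixed stretch of 134 bases at its 5′ side, chr12:114664780-114664913, read on the minus strand toward lower coordinates. DNA joined to the bait is called the prey. A prey on the minus strand continues in the direction of the bait, as after a deletion, and one on the plus strand is turned round, so that it reads from its start back toward the bait. The members were chosen by strand and position alone, without regard to joint structure or genotype. The same window held 39207 joins in deletional orientation, which served as the nearest comparison.

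The cells were CH12F3, a mouse B-lymphoma line that can be made to switch from IgM to IgA. Junctions were read by LAM-HTGTS, a translocation sequencing method based on linear amplification, which extends a primer across the bait into the DNA joined to it. All groups were stimulated for 72 h with 20 ng/mL IL-4, 1 ng/mL TGFβ and αCD40 at 1 mg/mL as labelled, and no unstimulated cells were included. There were 27 libraries, 3 biological replicates of each of 9 clones. WT was the parental line alone, and each mutant genotype (PAXX-/-, XLF-/-, XLF-/-PAXX-/- and Ligase4-/-) had 2 clones. The PAXX-/- and XLF-/- clones and 1 Ligase4-/- clone came from the parental line, the other Ligase4-/- clone came from a different laboratory, and both XLF-/-PAXX-/- clones came from a single PAXX-/- clone. The genotypes therefore rest on 1 or 2 clones, and the libraries of a clone share their cells.

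Class switching joins double-strand breaks that the deaminase AID starts in the repetitive switch regions, above all at AGCT motifs. Most breaks are sealed by classical non-homologous end joining, in which DNA ligase 4 seals the ends and XLF and PAXX are accessory factors that hold ends and machinery together. When that pathway is impaired, ends are processed further and joined by alternative pathways that often use short shared sequence, called microhomology. Breaks within Sμ can be joined to each other, by deletion of the DNA between them or with that DNA, or an end from elsewhere in the locus, turned round.

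The joints are shown first, because their letters carry much of what follows. The bait is given as read, 5′ to 3′ on the minus strand, and the stretch of Sμ holding the 5 most frequent prey starts is given on the plus strand, chr12:114663523-114663666. Capitals mark each AGCT, which reads the same on both strands. The bait held 2 AGCT motifs and the 144 bases of Sμ held 18.
bait: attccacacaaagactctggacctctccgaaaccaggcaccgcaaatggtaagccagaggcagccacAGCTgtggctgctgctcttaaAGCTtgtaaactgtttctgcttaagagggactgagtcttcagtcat
Sμ stretch: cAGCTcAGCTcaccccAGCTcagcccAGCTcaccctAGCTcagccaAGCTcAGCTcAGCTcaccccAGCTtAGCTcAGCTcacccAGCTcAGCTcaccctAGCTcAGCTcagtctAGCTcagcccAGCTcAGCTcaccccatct

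Each joint below runs from the bait into the inverted prey. In the microhomology joints capitals mark the bases that bait and prey share, in the insertion joints they mark bases that aligned to neither, and in the direct joint, which has neither, they mark the prey. The 5 prey starts are those with the highest mean share of members over the 9 clones, in that order, each with its most frequent joint. The last 2 lines are the most frequent direct joint and the most frequent microhomology joint of all members.
prey start 114663596, insertion: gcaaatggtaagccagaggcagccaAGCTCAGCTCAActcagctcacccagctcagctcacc
prey start 114663582, insertion: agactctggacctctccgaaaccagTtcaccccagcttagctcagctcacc
prey start 114663538, microhomology: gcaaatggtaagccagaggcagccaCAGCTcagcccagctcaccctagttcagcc
prey start 114663651, insertion: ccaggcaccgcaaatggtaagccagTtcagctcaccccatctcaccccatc
prey start 114663617, microhomology: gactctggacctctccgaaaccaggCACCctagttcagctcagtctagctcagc
prey start 114663582, direct: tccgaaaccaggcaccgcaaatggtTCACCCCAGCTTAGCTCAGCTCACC
prey start 114664170, microhomology: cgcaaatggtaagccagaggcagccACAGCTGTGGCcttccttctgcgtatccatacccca
The joint with 11 shared bases was held by 18 reads in 7 clones, and its shared bases include the upper AGCT of the bait with the letters around it. The other joints shown were held by 3 to 12 reads each.

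Libraries held 3610 to 14524 junctions, of which 80 to 1026 were members, so shares in WT and PAXX-/- rest on fewer joins than those in the other genotypes. By their read names the libraries came from 8 sequencing runs. Of these, 2 held both PAXX-/- and XLF-/- libraries, and in every other comparison run and genotype cannot be told apart. A base substitution was read in at least 20% of bait sequences at chr12:114664844 and 114664845 in PAXX-/- clone 2, at 114664833 in XLF-/- clone 1, and at 114664844 in both XLF-/-PAXX-/- clones. The libraries were digested with AflII, which cuts CTTAAG, to block uncut bait, and the bait holds 1 such site at chr12:114664801-114664806. The whole window, bait included, holds 5 such sites. CTTAAG was present at any place in 354 of the inverted reads (3.36%), from 0.585% in WT to 5.65% in XLF-/- clone 2. This count does not tell a site in the bait part of a read from one in the prey part.

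Inverted joins made up a larger share of all junctions in XLF-/-, XLF-/-PAXX-/- and Ligase4-/- cells than in WT, and not in PAXX-/- cells. In WT the 3 libraries gave 2.69%, 3.07% and 3.14%. PAXX-/- clone 1 gave 2.61%, 2.66% and 2.98%, and clone 2 gave 1.85%, 2.41% and 2.52%. These 9 values lay below every value of the other genotypes. XLF-/- clone 1 gave 6.46%, 6.56% and 6.74%, and clone 2 gave 5.04%, 5.68% and 5.90%. The XLF-/-PAXX-/- clones gave 5.76%, 6.73% and 7.36%, and 6.29%, 6.69% and 7.35%. Ligase4-/- clone 1 gave 5.89%, 7.06% and 7.25%, and clone 2, from the other laboratory, gave 4.14%, 5.46% and 5.49%. The Ligase4-/- clones did not overlap each other, and clone 2 overlapped the XLF-/- range only. These 2 clones shared no sequencing run, so clone, laboratory and run cannot be told apart here.

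**Figure D1:**
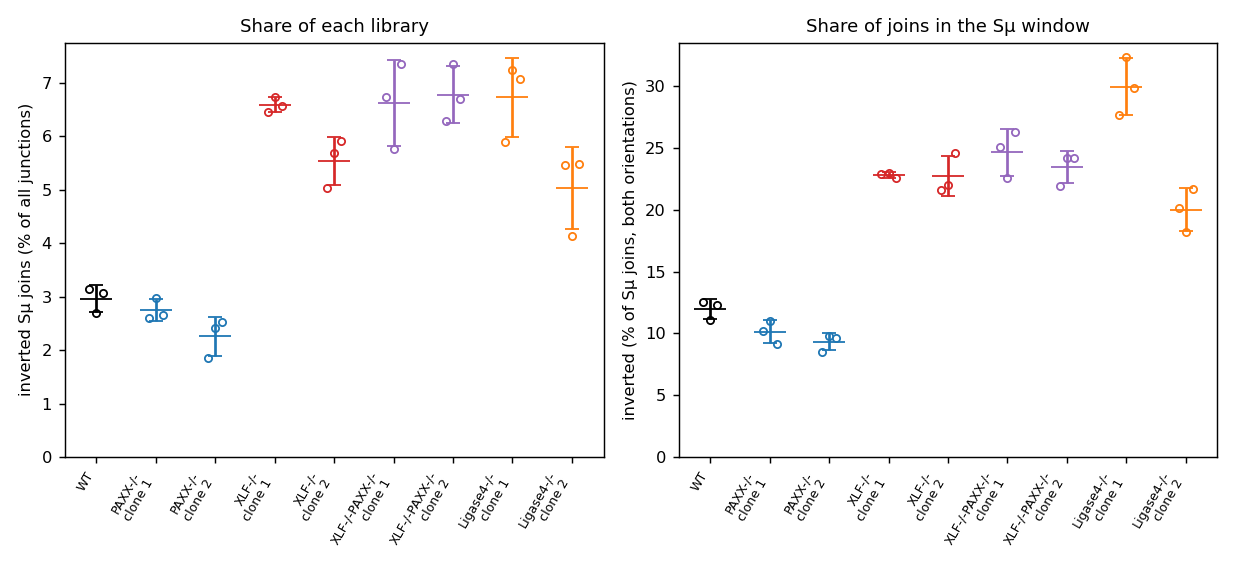
Inverted Sμ joins as a percentage of all junctions of a library (left) and of Sμ joins in both orientations (right), by clone. Points are the 3 libraries, horizontal lines the mean and bars the SD; the WT and PAXX-/- libraries sit between 1.85% and 3.14% in the left panel and all others between 4.14% and 7.36%.

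The increase over WT was 3.10 percentage points in XLF-/- (95% interval 2.09 to 4.01), 3.73 in XLF-/-PAXX-/- (2.69 to 4.66) and 2.91 in Ligase4-/- (0.998 to 4.56). Each had an exact two-sided permutation p of 0.0119 over the libraries, the smallest that 6 against 3 can give, and an adjusted p of 0.0260 over the 35 contrasts tested. In a simulation of the direct share, such p-values against WT were too small and such intervals too narrow. The PAXX-/- minus WT difference was -0.463 points, with an interval of -1.11 to 0.134 (exact permutation p = 0.0952, adjusted 0.139). XLF-/- exceeded PAXX-/- by 3.56 points (2.86 to 4.22, exact permutation p = 0.00216, adjusted 0.0260), and the difference was 3.53 points in one shared run and 3.58 in the other. XLF-/-PAXX-/-, whose clones came from a PAXX-/- clone, exceeded XLF-/- by 0.631 points, with an interval of -0.159 to 1.46 (exact permutation p = 0.121). XLF-/-PAXX-/- and Ligase4-/- differed by 0.817 points, with an interval of -0.342 to 2.01 (exact permutation p = 0.152), and by 1.67 points without Ligase4-/- clone 1, which passed (adjusted p = 0.0321, exact permutation). The Ligase4-/- call against WT was lost without library 1 or library 3 of clone 2 (adjusted p = 0.0678 in each case, exact permutation), and without library 3 the difference was 2.99 points. Without any 1 WT library, each of the 3 calls against WT in this and in the following measures was lost, since 28 splits remain, with differences of 2.78 to 3.82 points here. With the clone as the unit, 92.5% of the sum of squares over 9 clones lay between genotypes, and this missed the threshold once 8 measures were adjusted for (exact permutation p = 0.0275, adjusted 0.0728).

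The inverted joins also took a larger part of the Sμ window. Of the joins in both orientations, 11.97% ± 0.783 (SD, n = 3) were inverted in WT. PAXX-/- clone 1 had 10.1% ± 0.932 and clone 2 had 9.32% ± 0.695. Both XLF-/- clones were at 22.8%, with an SD of 0.223 and 1.61. XLF-/-PAXX-/- reached 24.7% ± 1.90 in clone 1 and 23.5% ± 1.31 in clone 2. Ligase4-/- had the widest gap between clones, with 29.99% ± 2.33 in clone 1 and 20.02% ± 1.73 in clone 2. The genotype test over 9 clones did not pass (88.0% of the sum of squares, exact permutation p = 0.0455, adjusted 0.0728). Without Ligase4-/- clone 1 it passed (99.6%, adjusted 0.0190), and without clone 2 it passed as well (99.7%, adjusted 0.0190).

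Most prey starts lay within 1.5 kb of the bait, and how they were divided among zones of distance differed between clones. The median member began 957 bp below the lower end of the bait, with quartiles of 570 and 1281 bp. The median distance was 1155 ± 15.4 bp (SD, n = 3) in WT and 859 ± 35.9 bp in Ligase4-/- clone 2, the lowest, so the middle of the distribution lay closer to the bait there. The zone from 0 to 1 kb held 36.3% of members in WT, 41.3% in both PAXX-/- clones and 48.8% to 62.0% in the other 6 clones. The zone from 1 to 1.5 kb held 40.1% in WT, 31.1% in PAXX-/- clone 1, 26.3% in clone 2 and 20.4% to 31.8% in the others, so the PAXX-/- clones lay within the range of the others there. These zone shares were not tested.

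Joins over 3 kb below the bait were rare in WT and PAXX-/- and more frequent in the 3 other genotypes. WT had 1 such join among 342 (95% exact Clopper-Pearson interval 0.00740% to 1.62%), and the PAXX-/- clones had 4 and 3. In XLF-/- there were 64 in clone 1 and 45 in clone 2, in XLF-/-PAXX-/- 122 and 106, and in Ligase4-/- 148 and 70. As a share of members below the bait, the WT libraries gave 0%, 0% and 0.820%, and the highest of 6 PAXX-/- libraries gave 1.65%. The XLF-/- libraries gave 3.52%, 4.96% and 5.99% in clone 1 and 4.37%, 5.12% and 6.56% in clone 2. The XLF-/-PAXX-/- libraries gave 6.44%, 7.23% and 8.12%, and 5.44%, 6.07% and 7.93%. The Ligase4-/- libraries gave 4.35%, 6.35% and 7.06%, and 6.29%, 6.44% and 7.32%. No library of these 3 genotypes overlapped WT or PAXX-/-.

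Over the 9 clones 98.8% of the sum of squares of this share lay between genotypes, which passed (exact permutation p = 0.00423, adjusted 0.0339). Against WT the share was 4.81 points higher in XLF-/- (3.15 to 6.56), 6.60 in XLF-/-PAXX-/- (5.09 to 8.12) and 6.03 in Ligase4-/- (4.27 to 7.32), each with exact permutation p = 0.0119 and adjusted p = 0.0260. PAXX-/- exceeded WT by 0.502 points, with an interval of -0.594 to 1.63 (exact permutation p = 0.310). XLF-/- exceeded PAXX-/- by 4.31 points (3.14 to 5.48, exact permutation p = 0.00216, adjusted 0.0260), and by 3.30 and 4.82 within the shared runs. XLF-/-PAXX-/- exceeded XLF-/- by 1.78 points (0.386 to 3.21, exact permutation p = 0.0216, adjusted 0.0446), a call that was lost without any 1 of 8 of the 12 libraries, which left differences of 1.47 to 1.87 points, and without either clone of either genotype. The genotype call was also lost without any 1 of 7 of the 8 mutant clones, with 98.5% to 99.3% of the sum of squares (adjusted p from 0.0571 to 0.124, exact permutation), Ligase4-/- clone 2 being the exception. With 2 kb as the limit in place of 3 kb, the genotype call ended (55.3%, exact permutation p = 0.435) and the XLF-/- minus PAXX-/- difference turned to -1.61 points. From 2 to 3 kb lay 8.26% of members in PAXX-/- clone 1 and 12.7% in clone 2, against 5.20% and 4.73% for XLF-/-.

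**Figure D2:**
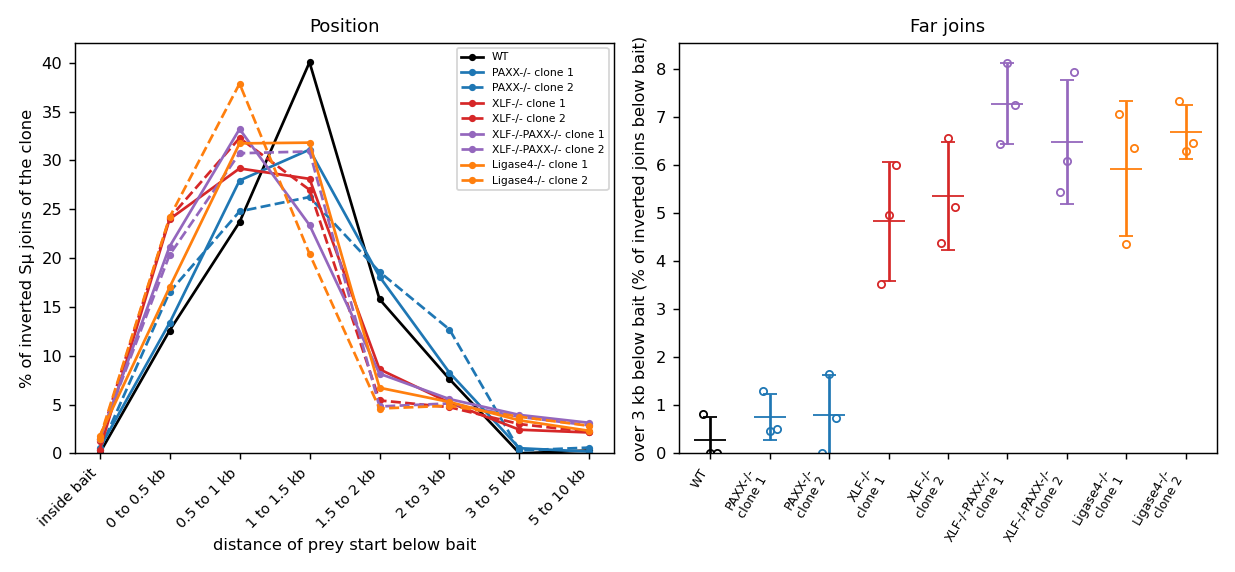
Left, percentage of each clone's inverted Sμ joins in zones of distance below the bait (zones are of unequal width). Right, percentage of joins below the bait that began over 3 kb from it, with points for the 3 libraries, lines for the mean and bars for the SD; WT and PAXX-/- libraries reach 1.65% and the others start at 3.52%.

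Few inverted joins began inside the bait interval. No inverted join in WT began inside the bait interval, of 342 members, which allows a share of up to 0.877%, and the PAXX-/- clones had 3 and 1. XLF-/- had 5 in clone 1 and 11 in clone 2, XLF-/-PAXX-/- had 25 and 24, and Ligase4-/- had 46 and 16. As a share of members this was 0.527% and 0.295% in the PAXX-/- clones and 0.356% in XLF-/- clone 1, between them, while the other 5 clones had 1.27% to 1.77%. Deletional joins inside the bait numbered 245 in WT. The share inside the bait did not pass the genotype test (82.2% of the sum of squares, exact permutation p = 0.0878, adjusted 0.100). In 167 of the 10526 members the prey began less than 100 bp below the end of the bait in that read. There were none among 342 in WT, none among 339 in PAXX-/- clone 2 and 4 among 569 in PAXX-/- clone 1. In XLF-/- there were 9 among 1405 and 16 among 867, and in XLF-/-PAXX-/- 35 among 1728 and 27 among 1604. Ligase4-/- had 50 among 2605 in clone 1 and 26 among 1067 in clone 2, the latter being the highest share. XLF-/- clone 1 had a lower share than PAXX-/- clone 1. These counts were not tested. In 9 members the prey began at or above the end of the bait in that read, so that the same bases could be present on both sides of the joint.

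**Figure D3:**
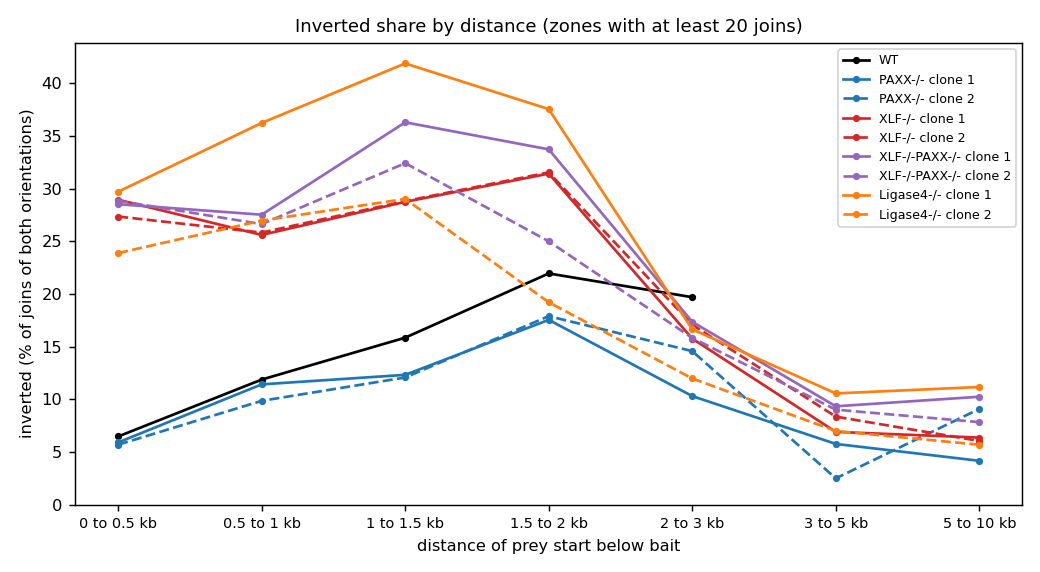
Inverted joins as a percentage of joins in both orientations, by distance below the bait, for zones with at least 20 joins of a clone. From 0 to 0.5 kb WT and the PAXX-/- clones lie between 5.70% and 6.48% and the other clones between 23.9% and 29.7%. In the zones from 3 to 5 kb and from 5 to 10 kb no clone shown exceeds 11.2%.

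The inverted share depended on distance in different ways. Within 0.5 kb of the bait it was 6.48% in WT, 5.91% in PAXX-/- clone 1 and 5.70% in clone 2. The corresponding pairs were 29.0% and 27.4% for XLF-/-, 28.5% and 28.8% for XLF-/-PAXX-/-, and 29.7% and 23.9% for Ligase4-/-. In WT it was 22.0% at 1.5 to 2 kb. From 3 to 10 kb it was 10.8% or less in every clone, with 6.65% and 7.20% in the XLF-/- clones. Joins were mostly deletional in every clone and every zone, with at most 41.9% inverted, in Ligase4-/- clone 1 from 1 to 1.5 kb. These shares are a description, and differences between zones were not tested.

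Direct joins, in which bait and prey meet without shared or added bases, were less frequent among inverted joins without XLF or DNA ligase 4. The WT libraries gave 9.02%, 13.4% and 18.7%. PAXX-/- clone 1 gave 7.69%, 11.3% and 14.5%, and clone 2 gave 8.75%, 9.84% and 14.6%. XLF-/- had 5.19%, 6.61% and 6.85%, and 4.65%, 6.87% and 8.65%. The XLF-/-PAXX-/- clones ranged from 4.19% to 6.94% and the Ligase4-/- clones from 4.42% to 7.38%. WT did not overlap any of the 3 genotypes with low values, while 1 PAXX-/- library lay within the XLF-/- range.

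Between genotypes lay 99.7% of the sum of squares over 9 clones (exact permutation p = 0.0106, adjusted 0.0423). Against WT, at a mean of 13.7%, the direct share differed by -7.24 points in XLF-/- (-11.8 to -2.40), -7.54 in XLF-/-PAXX-/- (-11.9 to -2.61) and -7.36 in Ligase4-/- (-11.6 to -2.95), each with exact permutation p = 0.0119 and adjusted p = 0.0260. Without WT library 3, which held 23 of the 47 direct joins in WT, the XLF-/- difference was -4.74 points. XLF-/- differed from PAXX-/- by -4.64 points (-7.73 to -1.66, exact permutation p = 0.00433, adjusted 0.0260), but the difference was -0.474 in one shared run and -6.72 in the other. The PAXX-/- minus WT difference was -2.60 points, with an interval of -8.86 to 3.34 (exact permutation p = 0.321). XLF-/-PAXX-/- differed from XLF-/- by -0.309 points (-1.92 to 1.22) and from Ligase4-/- by -0.187 (-1.66 to 1.20). The genotype call ended, with adjusted p from 0.0508 to 0.0745, in a 5 kb window, with insertions out of the denominator, with bait ends before the substituted positions only, and without the prey starts rich in insertions described below. It was lost too without WT library 3 (adjusted p = 0.0818), PAXX-/- clone 1 library 1 (0.0556), XLF-/- clone 1 library 1 (0.0550) or 2 (0.0508) or XLF-/-PAXX-/- clone 2 library 1 (0.0508), and without any mutant clone (0.0571 to 0.143), all by exact permutation and with 97.7% to 99.9% of the sum of squares.

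**Figure D4:**
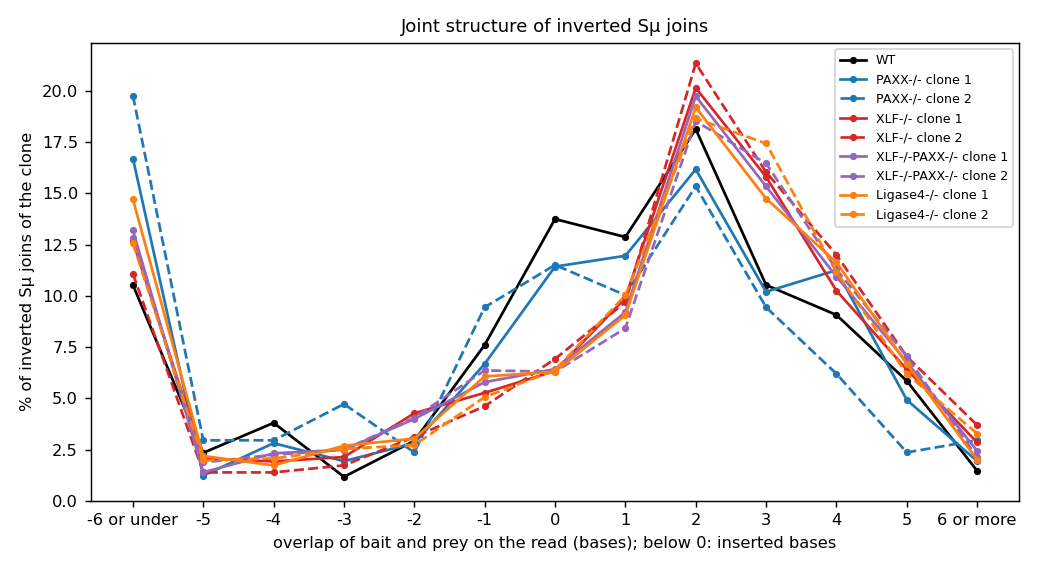
Percentage of each clone's inverted Sμ joins by how far the bait and prey alignments overlap on a read, in bases; 0 is a direct join, positive values are microhomology and negative values are inserted bases. At 0, WT (13.7%) and the PAXX-/- clones lie above the other clones, which lie between 6.30% and 6.92%.

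Joins with microhomology were the largest class in every clone. WT had 58.1% ± 6.77 (SD, n = 3) of its members in this class. PAXX-/- had 56.4% ± 8.95 in clone 1 and 46.8% ± 5.25 in clone 2, and XLF-/- had 66.4% ± 4.71 and 69.9% ± 1.91. For XLF-/-PAXX-/- the values were 64.5% ± 1.70 and 63.3% ± 3.11, and for Ligase4-/- 62.8% ± 2.89 and 66.8% ± 1.22. XLF-/- exceeded PAXX-/- by 16.5 points (8.24 to 24.8, exact permutation p = 0.00433, adjusted 0.0260), and by 11.1 and 19.3 within the shared runs. Its excess over WT was 10.0 points (2.90 to 18.3, exact permutation p = 0.0238, adjusted 0.0463), which lost the call without any 1 of 8 of the 9 libraries and fell to 6.19 without WT library 3. XLF-/-PAXX-/- and Ligase4-/- were 5.77 and 6.72 points above WT and did not pass (adjusted p = 0.139 and 0.0794, exact permutation). With insertions out of the denominator both passed, at 10.4 and 10.3 points (adjusted p = 0.0219, exact permutation).

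The shared stretches were slightly longer in the same 3 genotypes. The mean length was 2.72 bases in WT, 2.86 in PAXX-/-, 3.02 in XLF-/-, 3.002 in XLF-/-PAXX-/- and 2.99 in Ligase4-/-. The excess over WT was 0.300 bases in XLF-/- (0.0903 to 0.509), 0.285 in XLF-/-PAXX-/- (0.0773 to 0.492) and 0.272 in Ligase4-/- (0.108 to 0.398), each with exact permutation p = 0.0119 and adjusted p = 0.0260. A shared stretch of 1 base made up 22.2% of WT microhomologies and 13.2% to 15.1% of those in the 3 genotypes, while 3 bases or more made up 46.5% and 54.0% to 57.8%. The XLF-/- call was lost without clone 1 library 3 (0.296 bases) or clone 2 library 1 (0.312). Counted from 2 bases, none of the 3 length differences passed, and they were 0.0850 to 0.123 bases. The clone-level test did not pass either (adjusted p = 0.100, exact permutation).

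The PAXX-/- mean length turned on reads that held an AflII site at any place. In PAXX-/- the 26 microhomology joins with the site in the read had a mean shared length of 6.04 bases, against 2.70 in the 452 others, while in XLF-/- the means were 3.27 and 2.98. Without such reads XLF-/- exceeded PAXX-/- by 0.349 bases (exact permutation p = 0.00216, adjusted 0.0245), against 0.159 with them (exact permutation p = 0.0368, adjusted 0.0678). The PAXX-/- minus WT difference was 0.140 bases with them and -0.0596 without them. The most frequent joint among these reads, held by 15 reads in 8 clones with 6 of them in PAXX-/-, is shown with its 13 shared bases in capitals.
prey start 114664500, AflII site in the overlap: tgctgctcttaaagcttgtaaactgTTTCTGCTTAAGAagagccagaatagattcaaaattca
The shared bases contained CTTAAG in all 15, from the bait site and from a second site at chr12:114664506-114664511 on the prey side. The part of the digest in these joins was not tested.

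Among shared stretches of 3 bases or more, CAGCT was the most frequent, in 344 of 3680 (9.35%), followed by CAG in 284 and CCAG in 236. In the bait CAGCT lies in the palindrome CAGCTG around the upper AGCT, so the bait can present CAGCT when it ends on one side and AGCTG one base further on. Inverted joins used CAGCT and almost never AGCTG, which had 6. Deletional joins used AGCTG in 642 of 12310 (5.22%) and CAGCT in 22. The most frequent bait end moved with it, from 114664843 in inverted joins (6.34% of them) to 114664842 in deletional joins (4.62%). The plus strand of the printed Sμ stretch is rich in CAGCTC, which an inverted prey presents as it stands and a deletional prey as its complement.

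CAGCT made up 15.2% of these stretches in WT (14 of 92), 10.6% in PAXX-/- clone 1 and 2.82% in clone 2. XLF-/- had 9.88% and 8.63%, XLF-/-PAXX-/- 9.46% and 9.12%, and Ligase4-/- 9.97% and 7.39%. The low value in PAXX-/- clone 2 rests on 2 of 71 joins. That clone carried base substitutions within this AGCT, at 114664845 in 50.9% of reads and at 114664844 in 40.0%. Both XLF-/-PAXX-/- clones carried the latter in 38.0% and 42.7% of reads. The part of these substitutions was not tested.

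Prey starts were spread over 2548 positions, and the 7507 distinct joins, counted by prey start and bait end, were mostly private, with 17.7% found in more than 1 clone. A prey start was counted where a whole AGCT lay in the stretch from 4 bases before it to its first 4 bases. The share of such prey starts followed the density of that motif by zone. From 1 to 2 kb below the bait, 58.6% of members began at such places, against 64.0% of all positions. In the other 4 zones the members' share was above that of the positions, with 3.36% against 2.0% up to 0.5 kb, 8.94% against 8.0% from 0.5 to 1 kb, 40.9% against 31.5% from 2 to 3 kb and 3.55% against 2.38% from 3 to 10 kb. These differences were not tested.

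The position with the highest mean share, 114663596, lay 1184 bp below the bait and was found in all 9 clones, at 0.877% to 1.93% of their members. Of its 135 joins, 126 carried an insertion, and 124 of these ended in the same base, which was not the base mm9 has in front of that prey start. The second, 114663582, held 90 joins with 82 insertions, 80 of them ending in one same base that mm9 does not have there. At 114663651 all 43 insertions, of 50 joins, did so. At 114663538 and 114663617 microhomology was the larger class, with 17 of 33 and 20 of 25 joins. Altogether 7 positions with at least 20 inverted joins had insertions in at least 80% of them, and these held 3.51% of members and 10.7% of all insertions. Whether the sequence of the CH12F3 locus differs from mm9 at these places was not tested.

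Insertions were found in 3085 members. WT had them in 28.2% ± 2.57 (SD, n = 3) of members, and PAXX-/- in 32.4% ± 7.10 for clone 1 and 42.1% ± 2.61 for clone 2. XLF-/- had 27.3% ± 4.32 and 23.4% ± 0.981, XLF-/-PAXX-/- had 29.2% ± 1.25 and 30.7% ± 4.28, and Ligase4-/- had 30.7% ± 2.06 and 26.9% ± 0.612. The genotype test did not pass (70.8% of the sum of squares, exact permutation p = 0.161). The median insertion was 5 bases long, 624 were of 1 base, and 768 were of 12 bases or more. In 3.28% to 8.77% of a clone's insertions the inserted bases equalled the continued bait with 1 base changed, which an alignment ending early at a substitution also gives.

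Long insertions often matched Sμ itself. Of the 768, 460 (59.9%) shared 12 bases in a row with the window, 251 on the plus strand, which is the direction of the inverted prey, and 219 in the direction of the bait, with 10 in both. A piece in the direction of the bait matches the window, bait included, on the minus strand, and lies between bait and inverted prey without being turned. Reads in which the bait alignment ended early and the bait went on were not set apart from these pieces. Nor were reads in which the prey alignment began late set apart from the plus-strand matches. How often 12 bases match this repetitive window by chance was not measured. Of the 219 pieces, 155 (70.8%) matched between the prey start and the bait end, with a median of 257 bp above the prey start. Another 9 matched within 5 bases below the prey start, and 55 matched elsewhere. Of these pieces 200 matched only 1 place in the window. A joint of each kind is shown, with the inserted bases in capitals.
Ligase4-/- clone 1, piece from between: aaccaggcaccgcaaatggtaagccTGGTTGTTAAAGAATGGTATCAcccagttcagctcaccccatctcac
XLF-/- clone 1, piece next to the prey: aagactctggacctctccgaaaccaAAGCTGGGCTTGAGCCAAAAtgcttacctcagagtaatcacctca
In the first, the 22 bases are chr12:114664250-114664271 on the minus strand and the prey starts at 114663645. In the second, the 20 bases are chr12:114663904-114663923 on the minus strand and the prey starts at 114663924, so that the inserted piece and the prey are the 2 sides of 1 point of the reference.

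WT had pieces in the direction of the bait in 0.877% of members (3 of 342), and PAXX-/- in 0.879% (clone 1) and 0.885% (clone 2). The pairs were 2.21% and 1.27% for XLF-/-, 1.79% and 2.18% for XLF-/-PAXX-/-, and 3.11% and 1.78% for Ligase4-/-. Libraries of WT and PAXX-/- ranged from 0% to 2.46%, and those of the other genotypes from 0.617% to 3.77%, so the ranges overlapped. This measure was added after the values were seen and was not tested. Pieces on the plus strand showed no such order, with 2.34% in WT and 1.97% to 4.22% in the other clones. Among deletional joins, pieces in the bait direction, which is there also the direction of the prey, were 2.38%. Pieces turned against the prey, on the plus strand, were 0.411% of deletional joins. In inverted joins the pieces turned against the prey are those in the bait direction, at 2.08%. Bait alignments that ended early were not set apart from the latter.

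**Figure D5:**
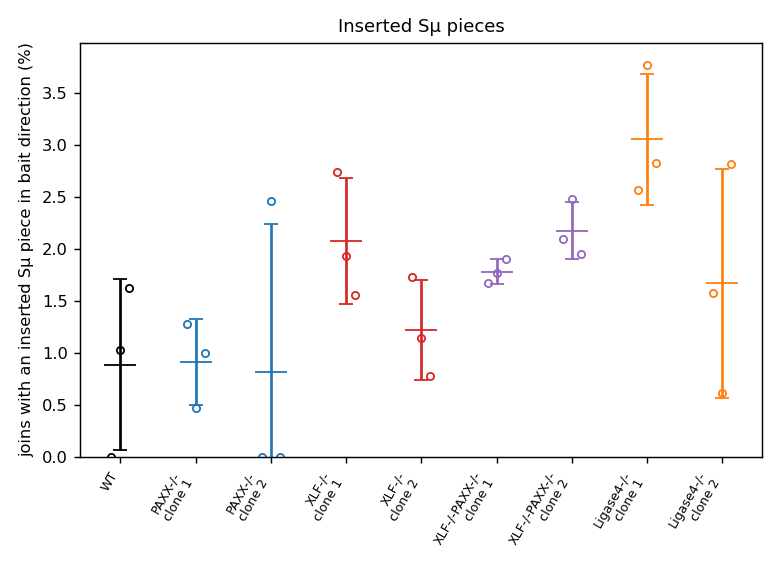
Percentage of inverted Sμ joins that carry an inserted piece of at least 12 bases matching Sμ in the direction of the bait, by clone, with points for the 3 libraries, lines for the mean and bars for the SD. The highest library, of Ligase4-/- clone 1, is at 3.77%, and 3 of the WT and PAXX-/- libraries are at 0. Bait alignments that ended early were not set apart.

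Set against deletional joins of the same window and libraries, inverted joins were less often over 3 kb away, less often direct, longer in microhomology and more often joined with insertions. The share over 3 kb averaged 4.26% in inverted and 15.1% in deletional joins over the 9 clones, lower in 9 of 9 (exact sign-flip permutation p = 0.00391, the smallest possible, adjusted 0.00651). Closer in, the orientations were ordered differently by clone. From 0 to 1 kb lay 36.3% of inverted and 48.7% of deletional joins in WT, 41.3% and 48.1% in PAXX-/- clone 1, and 41.3% and 51.9% in clone 2. In each of the other 6 clones the inverted share was the higher, at 48.8% to 62.0% against 41.5% to 46.7%. Inside the bait lay 9.77% of deletional WT joins, against none of the inverted ones. These zones were not tested. The direct share averaged 8.21% and 10.9%, lower in 9 of 9 (adjusted p = 0.00651, exact permutation). That call was lost without XLF-/- clone 2 library 3 (-2.53 points), XLF-/-PAXX-/- clone 1 library 2 (-2.58) or clone 2 library 1 (-2.56). With insertions out of the denominator the difference was -3.08 points and did not pass (exact permutation p = 0.141). The mean microhomology length was 2.94 and 2.66 bases, longer in 9 of 9 clones (adjusted p = 0.00651, exact permutation). Insertions were 30.1% and 25.7%, higher in 8 of 9 clones (exact permutation p = 0.00781, adjusted 0.00977). The microhomology share, 61.7% and 63.4%, was lower in 7 of 9 and did not pass (exact permutation p = 0.324).

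These orientation differences were of unequal size. For the share over 3 kb, inverted minus deletional was -0.387 points in WT, -0.772 in PAXX-/- clone 1 and -1.24 in clone 2. In the other 6 clones it was between -18.7 and -14.9. For the direct share, inverted minus deletional was -7.22 points in WT, -7.56 in PAXX-/- clone 1 and -6.85 in clone 2, and between -1.10 and -0.102 in the other 6 clones. Deletional WT joins were direct in 20.9% and had a shared stretch of 1 base in 36.9% of their microhomologies, against 13.7% and 22.2% for the inverted ones. Microhomology in inverted joins was longer by 0.430 bases in WT, by 0.720 in PAXX-/- clone 1, by 0.586 in clone 2, and by 0.0855 to 0.184 in the others. Over the 9 clones, 99.3% of the sum of squares of the orientation difference in the direct share lay between genotypes. It was 96.5% for the microhomology length and 98.7% for the share over 3 kb. None passed after adjustment (exact permutation p = 0.0317, 0.0201 and 0.0159, adjusted 0.0529, 0.0503 and 0.0503). Missing the threshold does not show that the genotypes were alike.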

How the data were processed

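The authors aligned with Bowtie2 and worked in mm9, per the submitters' processing notes. Their remaining steps were not given in the sources used here. Each deposited table lists junctions, 1 to a line, as alignment positions and strands on read and genome (neither counts nor normalized values) and pools the 3 libraries of a clone, told apart by library name. Replicate numbers could not be matched to these names, so libraries were numbered by name.

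Overlap was the bait's last aligned read base minus the prey's first plus 1; the window reached 10 kb below the bait. Reference letters came from the junction context column, which gave 10097 of 10134 window positions with 0 conflicts. In 91.1% of members the first 10 prey bases matched that column.

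Genotypes were compared on 9 clone means by the share of the sum of squares between genotypes, with an exact permutation over 945 splits. With so few clones to a genotype this share can be large without a difference. For the insertion share, 70.8% had an exact permutation p of 0.161. Libraries were compared by exact permutation of their mean difference, two-sided, and the test was inverted for 95% intervals, and orientations by sign flips over 9 clones (512 patterns). Library p-values ignore clones, so they measure spread between libraries. Benjamini-Hochberg adjustment covered 8, 35 and 5 tests, and a call is an adjusted p of at most 0.05. Counts of 0 use a limit of 3 counts. Intervals for counts are exact Clopper-Pearson intervals and cover counting error only; lines are reads without molecular identifiers. The 86 members repeating another line's joint in their library were kept. Named positions were the bait, distance zones and the 5 prey starts of highest mean share held by at least 5 clones. Members, measures and lists were chosen with earlier results of these data known. Tests were checked on simulated data. Libraries of the real sizes were simulated for the direct share. With no difference, the test of 6 against 3 fell under 0.05 in 9.25% of 400 data sets, more often than that level allows. With a difference of -7 points, its 95% intervals held that difference in 87.75%, less often than stated. Such p-values and intervals against WT are therefore too small and too narrow. Other measures were not simulated in this way. Alternatives covered repeats, long gaps, joins inside the bait, bait ends, window, distance limit, denominators, microhomology minimum, pooling, sequencing run and each library and clone left out. Those without insertion-rich prey starts and without reads holding the AflII site were chosen after seeing the data. Python 3.11.15, numpy 2.4.6, pandas 2.3.3, scipy 1.17.1 and matplotlib 3.10.9 were used.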

Additional observations from a re-analysis of the deposited data

Results flagged for a closer look

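In 2 of 32 groups of 6 libraries examined (4 genotypes and 8 measures), 1 library lay apart from the others of its genotype by the gap to its nearest neighbour. Chance gives this in about 1 in 20 groups, so about as many as were found. XLF-/- clone 1 library 1 had the lowest microhomology share of inverted joins in its genotype, 61.0%, while the other 5 XLF-/- libraries lay between 68.6% and 72.1%. Ligase4-/- clone 1 library 2 had the lowest share over 3 kb below the bait, 4.35%, while the other 5 Ligase4-/- libraries lay between 6.29% and 7.32%.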

How the results depend on the processing

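Of 379 recomputed values, with libraries and clones kept, 339 kept their direction and side of the threshold, 20 lost a call, 6 gained one and 14 changed sign. The share of all junctions kept its calls under each of these, and the causes of the changes were not tested. With bait ends before the substituted positions, the direct-share genotype value was 93.2%; the microhomology length differences from WT were 0.247 (XLF-/-), 0.263 (XLF-/-PAXX-/-), 0.176 (Ligase4-/-) and -0.0771 bases (PAXX-/-); the XLF-/- microhomology share exceeded WT by 10.1 and PAXX-/- by 14.8 points; its direct share differed from PAXX-/- by -2.31; and XLF-/-PAXX-/- minus XLF-/- was 2.39 points over 3 kb, 0.0996 points for direct joins and 0.0164 bases, and minus Ligase4-/- 0.327 points for direct joins and 1.09 for microhomology. A 2 kb limit gave 55.3% for genotype, 1.84 points for XLF-/- minus WT and -1.61 for XLF-/- minus PAXX-/-. A 5 kb window gave 99.6% (direct, genotype) and 10.1 points (microhomology share, XLF-/- minus WT). With insertions out of the denominator, these were 98.2% for direct joins; for the microhomology share 1.195 (PAXX-/- minus WT), 10.4 (XLF-/-PAXX-/- minus WT), 10.3 (Ligase4-/- minus WT) and 0.169 points (XLF-/-PAXX-/- minus Ligase4-/-); 0.0866 for direct joins (XLF-/-PAXX-/- minus XLF-/-); and inverted minus deletional -3.08 for direct and 3.08 for microhomology. Microhomology from 2 bases gave differences from WT of 0.123, 0.0850 and 0.0960, and -0.00970 (XLF-/- minus PAXX-/-) and -0.0109 bases (XLF-/-PAXX-/- minus Ligase4-/-). Without gaps over 20 bases, the XLF-/-PAXX-/- and Ligase4-/- microhomology shares exceeded WT by 7.03 and 8.71 points. Only below the bait, the length difference of XLF-/-PAXX-/- minus XLF-/- was 0.00346 bases. Without insertion-rich prey starts the values were 99.0% (direct, genotype), 10.8 and 6.98 points (microhomology share, XLF-/- and XLF-/-PAXX-/- minus WT). Without reads holding the AflII site they were -0.0596 and 0.349 bases (length, PAXX-/- minus WT and XLF-/- minus PAXX-/-) and 1.71 points (over 3 kb, XLF-/-PAXX-/- minus XLF-/-).

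Leaving out each library or clone in turn, any WT library leaves 28 splits and any clone 20 against WT, so calls against WT are lost there by construction. The ranges against WT for XLF-/-, XLF-/-PAXX-/- and Ligase4-/- were 2.58 to 3.62, 3.59 to 3.92 and 2.06 to 3.77 points of all junctions; 4.52 to 5.13, 6.21 to 6.99 and 5.65 to 6.42 over 3 kb; -9.58 to -4.74, -9.89 to -5.05 and -9.70 to -4.86 for direct joins; and 0.230 to 0.370, 0.247 to 0.342 and 0.236 to 0.329 bases. The microhomology share ranged from 6.19 to 12.5 (XLF-/-) and 2.86 to 9.22 points (Ligase4-/-). XLF-/- minus PAXX-/- ranged from -5.32 to -3.94 (direct), 11.7 to 21.3 (microhomology share) and 0.0896 to 0.229 bases. XLF-/-PAXX-/- minus XLF-/- ranged from 1.39 to 2.18 (over 3 kb), -0.673 to 0.126 (direct), -6.0 to -2.55 (microhomology share) and -0.0848 to 0.0548 bases, and minus Ligase4-/- from -0.0361 to 1.67 (all junctions), -0.573 to 0.207 (direct), -2.96 to 1.06 (microhomology share) and -0.0255 to 0.0400 bases. Genotype values ranged from 89.8% to 97.6% (all junctions), 83.6% to 99.7% (Sμ window), 97.4% to 99.3% (over 3 kb), 96.8% to 99.9% (direct) and 66.2% to 95.9% (microhomology share). Inverted minus deletional direct joins ranged from -3.05 to -2.07 points.

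No paired analysis was possible because the library names in the files carry no replicate number. WT libraries held 97 to 123 members, which limits the precision of every WT share.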
